A study of Homo sapiens with 4 samples.

Results

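Ribosomal protein genes encode the proteins of the cytosolic ribosome, the machine that translates messenger RNA. Their products assemble with ribosomal RNA in the nucleolus into a large subunit, which joins amino acids, and a small subunit, which reads the message. The genes are active in every dividing cell, most have short promoters at CpG-rich sequence, and many carry small nucleolar RNA (snoRNA) genes in their introns. Their transcripts typically begin with a C and a run of pyrimidines, the 5′ terminal oligopyrimidine (TOP) tract, through which growth signals control translation.

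The members were the protein-coding genes whose symbols are RPL or RPS followed by digits, with paralogues that end in L or L1, the P-stalk genes RPLP0, RPLP1 and RPLP2, and RPSA. Pseudogenes and the RPS6K kinases were left out. The rule found 85 genes among 19970 protein-coding genes of chromosomes 1 to 22 and X. They lay on 21 chromosomes, with 12 on chromosome 19, 9 on chromosome 3 and 6 on chromosome 17.

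Open chromatin was mapped by ATAC-seq, in which the Tn5 transposase inserts adapters into open chromatin, in SK-N-BE(2)C, an established MYCN-amplified neuroblastoma line. Control cells (genotype wildtype) had received a non-targeting gRNA and sgSNHG1 cells (labelled SNHG1 knockout) gRNAs against SNHG1, a long non-coding RNA that itself hosts snoRNAs. According to the paper, SNHG1 expression was significantly repressed but the knockout was not complete. Both groups went through Cas9 transfection, puromycin selection and single-cell sorting into clones, so that a difference between the guides and a difference between clones cannot be told apart. Each group had 2 replicates, which the authors merged into 1 peak list, so that no value below has a replicate spread, no test between the groups was made, and the errors given are Poisson counting errors of 1 pooled list.

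There were 47610 peaks in the control list and 42682 in that of sgSNHG1. Each peak has a fold enrichment, the ratio of the fragment pileup at its summit to the local background, and the whole-number pileup was solved from this ratio and the deposited p-value. The median pileup was 24 fragments in control and 20 in sgSNHG1. Among 6 adrenergic neuroblastoma markers, the promoters of HAND2, GATA3, ISL1, MYCN and DBH were open in both lists and that of TH in neither. The start of SNHG1 had a peak in both lists, enriched 5.71-fold in control (36 fragments) and 6.04-fold in sgSNHG1 (27 fragments), so that accessibility of this promoter does not check the knockout label.

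The sequences around the start sites show what these promoters share. The stretches below run from 70 bases before the start to 20 bases from it on, 5′ to 3′ on the strand of the gene, and were taken from RefSeq (GRCh38.p14). They are the members in chromosome stretches where the pileup differed between the lists, 1 member with a peak in control alone, 2 paralogues with their parent genes, and the acidic stalk, laminin-receptor and 5S RNP members described below. Capitals mark the TOP tract at the start site and the ETS letters CCGGAA, or TTCCGG on the other strand, and where both fall together the capitals run on.
RPL34, chr4:108620506-108620595, plus strand: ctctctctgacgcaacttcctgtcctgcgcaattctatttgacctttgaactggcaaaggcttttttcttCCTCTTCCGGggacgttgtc
RPS3A, chr4:151099558-151099647, plus strand: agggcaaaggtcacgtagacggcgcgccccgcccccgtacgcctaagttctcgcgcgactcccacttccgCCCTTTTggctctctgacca
RPS6, chr9:19380217-19380306, minus strand: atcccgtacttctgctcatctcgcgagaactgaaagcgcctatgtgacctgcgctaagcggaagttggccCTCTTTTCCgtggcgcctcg
RPL10, chrX:154398307-154398396, plus strand: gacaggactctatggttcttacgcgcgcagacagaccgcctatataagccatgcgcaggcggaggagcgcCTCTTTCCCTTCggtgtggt
RPL29, chr3:51995876-51995965, minus strand: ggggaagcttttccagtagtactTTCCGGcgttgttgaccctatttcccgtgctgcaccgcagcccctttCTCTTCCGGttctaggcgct
RPL22, chr1:6199576-6199665, minus strand: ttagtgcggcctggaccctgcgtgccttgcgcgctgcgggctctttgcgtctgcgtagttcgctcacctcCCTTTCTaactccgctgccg
RPL22L1, chr3:170870176-170870265, minus strand: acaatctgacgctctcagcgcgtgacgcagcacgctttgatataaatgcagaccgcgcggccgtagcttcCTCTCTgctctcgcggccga
RPL36A, chrX:101390941-101391030, plus strand: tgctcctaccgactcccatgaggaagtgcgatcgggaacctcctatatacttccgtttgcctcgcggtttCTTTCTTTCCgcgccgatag
RPL36AL, chr14:49620607-49620696, minus strand: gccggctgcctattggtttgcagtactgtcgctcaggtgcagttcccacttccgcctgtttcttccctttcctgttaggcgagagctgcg
RPLP0, chr12:120201092-120201181, minus strand: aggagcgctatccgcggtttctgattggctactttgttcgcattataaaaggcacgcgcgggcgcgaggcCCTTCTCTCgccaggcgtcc
RPSA, chr3:39406650-39406739, plus strand: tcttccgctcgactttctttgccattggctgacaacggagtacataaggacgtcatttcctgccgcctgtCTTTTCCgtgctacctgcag
RPL11, chr1:23691736-23691825, plus strand: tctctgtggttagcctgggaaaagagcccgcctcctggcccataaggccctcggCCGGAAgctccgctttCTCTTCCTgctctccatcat

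Where RefSeq lists several starts for a gene, one with a TOP tract was printed. In these 12 stretches the tract began exactly at the listed start in every one but RPL36AL. RefSeq windows of 300 bases, 250 before the start and 50 from it on, were matched by symbol for 68 of the 85 members and for 15315 protein-coding genes in all, and all 84 windows of the members were identical to the genome. A C followed by at least 4 pyrimidines stood at a start site in 47 of 68 members (69.1%), beside 6.33% of all genes. With the tract allowed to begin within 20 bp of the start, the shares were 92.6% and 57.9%.

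The ETS letters CCGGAA, read on both strands, were found in 39 of 68 members (57.4%), beside 26.9% of all genes and 35.4% of genes with a promoter peak in both lists. ETS factors are a large family of activators of widely expressed genes. GGGCGG, the core of the SP1 box, was found in 58.8% of members and 65.1% of all genes. The E-box CACGTG, the letters that MYC and MYCN recognise, stood in 5 members (7.35%), which were RPL13A, RPL19, RPL7L1, RPS19 and RPS28, and in 10.9% of all genes. AAGATGG (YY1) was held by 13.2% of members and 7.95% of all genes, TATAAA by 10.3% and 12.4%, and GCGCATGCG (NRF1) by 1.47% and 3.10%. The member windows had a median GC content of 60%, with a range of 44.7% to 72.3%, against 62.5% over all genes. These matches describe letters and not bound factors.

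The same letters were counted within 100 bp of the control summits, the points of highest fragment pileup. ETS letters were found at 45.1% of member summits and 23% of all promoter summits, and GGGCGG at 43.9% and 61.0%. CACGTG stood at 4.88% and 7.02%, AAGATGG at 9.76% and 4.75%, TATAAA at 7.32% and 2.39%, and GCGCATGCG at 3.66% and 2.78%. Members with ETS letters in the window showed a median difference in fold enrichment, as the log2 of sgSNHG1 over control, of -0.09 (n = 35), and members without them -0.05 (n = 28).

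Nearly all ribosomal protein promoters were open in both lists. A promoter peak here is a peak that overlaps 1 kb on either side of the start site of any transcript of the gene, and a gene with several takes the one with the highest fold enrichment. Peaks in both lists were found for 79 of 85 members (92.9%), beside 60.4% of all protein-coding genes. A further 3 members had a peak in control alone, where the share over all genes was 5.92%, and 1 had a peak in sgSNHG1 alone, where it was 1.71%. Among small subunit genes all 31 were open in both, among large subunit genes 42 of 46, and among paralogues 6 of 8. The promoters drew on 89 distinct control peaks and 90 distinct sgSNHG1 peaks, and no peak was shared by 2 members.

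The members seen in 1 list had weak peaks there. RPL29, a large subunit protein, had a control peak of 135 bp at chr3:51995873-51996007 with a pileup of 13 fragments and a fold enrichment of 4.37. RPL17, also of the large subunit, had a control peak of 16 fragments with a fold enrichment of 5.31. RPL32 had an sgSNHG1 peak of 126 bp with 12 fragments and a fold enrichment of 4.78, with its summit 360 bp upstream of the nearest start. These 3 peaks held fewer fragments than the median promoter peak of the members, 38 in control and 30 in sgSNHG1.

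RPL19 was the member with a control peak alone whose peak was not thin. Its control peak held 36 fragments with a fold enrichment of 4.76. The nearest sgSNHG1 peak, with 35 fragments and a fold enrichment of 4.68, lay 2595 bp from a start site and so outside the window. With a window of 3 kb RPL19 counted as present in both lists. The sgSNHG1 peak, at chr17:39197532-39197688, does not overlap the control peak at chr17:39199863-39200452. The wider window therefore does not show the site of that control peak open in sgSNHG1. A gene listed in 1 file only is one whose other pileup did not pass the threshold of the peak caller in the window, and its value there is unknown.

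RPL10L and RPL3L had no promoter peak in either list. RPL10L is a retrogene copy of RPL10 known from testis, and its nearest peaks lay 218041 bp away in control and 296956 bp away in sgSNHG1. RPL3L, the heart and skeletal muscle form of RPL3, had its nearest peaks 1770 bp and 1739 bp from the start, just outside the window. The parent genes were open in both lists, with fold enrichments of 7.46 and 9.36 for RPL10 and of 5.11 and 4.58 for RPL3, in control and sgSNHG1.

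The height of the peaks was that of an average promoter. The members had a median fold enrichment of 7.92 in the control list (n = 82) and 7.66 in the sgSNHG1 list (n = 80), beside 7.60 and 7.35 over all protein-coding promoters. In control 45 of 82 members lay above the median of all promoters, and in sgSNHG1 47 of 80. The members ranged from 4.06 (RPL41) to 15.3 (RPL39L) in control and from 3.32 (RPL41) to 14.0 (RPL36AL) in sgSNHG1. RPL41 encodes the smallest protein of the large subunit, a peptide of very few residues.

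Large and small subunit genes overlapped widely in height. Large subunit promoters had medians of 7.03 (control) and 7.36 (sgSNHG1), and small subunit promoters 8.20 and 7.58. The quartiles of the large subunit values were 5.62 and 9.61 in control, and those of the small subunit 6.81 and 10.2. The 6 paralogues with peaks had medians of 10.4 and 11.1.

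The highest control peaks belonged to RPL39L, with 15.3 (164 fragments), RPL22L1, with 14.7 (118 fragments), RPS12, with 12.5 (88 fragments), RPS29, with 12.3 (81 fragments), and RPL39, with 12 (45 fragments). In sgSNHG1 the same promoters had fold enrichments of 13.4, 12.9, 12.9, 14.0 and 10.5. RPS12 and RPS29 belong to the small subunit, and RPL39 lines the exit tunnel of the large subunit. The log2 ratios of these 5 ran from -0.20 (RPL39, counting error 0.33) to 0.18 (RPS29, 0.24), each less than 2 counting errors from 0.

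The 12 members on chromosome 19 had a lower median height than the other members. It was 6.23 in control and 6.11 in sgSNHG1, against 8.48 and 8.58 for the members on other chromosomes. The same held for promoters of all genes, with medians of 5.93 and 6.01 on chromosome 19 and of 7.73 and 7.43 elsewhere. The chromosome 19 members had a median pileup of 22.5 fragments in control and 19.5 in sgSNHG1, against 42 and 31.5 for the others.

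**Figure D1:**
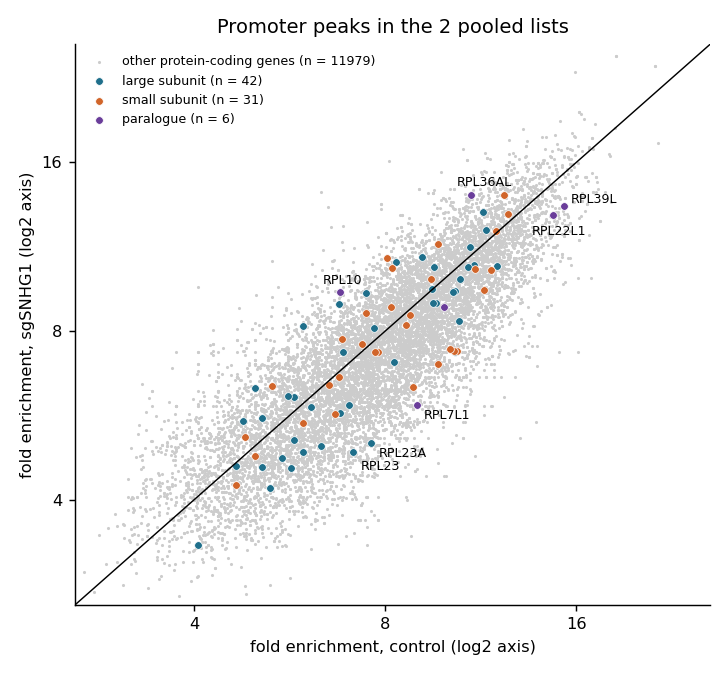
Fold enrichment of the highest promoter peak of each gene in control (x axis) and sgSNHG1 (y axis), both on log2 axes, for 42 large subunit genes, 31 small subunit genes and 6 paralogues over the other protein-coding genes with a peak in both lists. The line marks equal values, and the members lie within the cloud of all promoters on both sides of it.

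The fold enrichment of ribosomal protein promoters differed little between the lists. The median log2 ratio of sgSNHG1 over control was -0.07 over 79 members, beside -0.07 over all 12058 protein-coding promoters with a peak in both lists. Lower values in sgSNHG1 were found for 47 members (59.5%, beside 60.6% of all promoters) and higher values for 32. The SD of the members' ratios was 0.26, smaller than the median counting error of 0.35, which ranged from 0.19 to 0.56 among the members. Over all promoters the SD was 0.287 and the median counting error 0.345, so that 2 counting errors are a wide limit for these ratios. No member differed by more than 2 counting errors, beside 1.89% of all promoters. This rests on taking the highest peak of each gene. With the peak of the nearest summit, RPL10 (-0.90 ± 0.39), RPL23A (-1.07 ± 0.50) and RPL22 (-1.29 ± 0.37) did, RPL22 with peaks at different starts in the lists. The 1.89% belongs to the highest peak, and the share of all promoters by the nearest summit was not counted. A log2 ratio of -0.5 or less was found for 1218 of all 12058 promoters by the nearest summit, against 895 by the highest peak.

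A log2 ratio of -0.5 or less was found for 3 of 79 members, beside 7.42% of all promoters. These were RPL7L1, RPL23A and RPL23. RPL7L1, a paralogue known for ribosome assembly, was enriched 8.98-fold in control (43 fragments) and 5.92-fold in sgSNHG1 (23 fragments), a log2 ratio of -0.60 ± 0.37 (counting error). RPL23A, at the exit tunnel, had 7.61 (27 fragments) and 5.06 (17 fragments), a ratio of -0.59 ± 0.45, and its peak appeared as 1 peak in control and as 2 in sgSNHG1. RPL23, known for binding MDM2, had 7.13 (39 fragments) and 4.87 (19 fragments), a ratio of -0.55 ± 0.40. Each of the 3 ratios was under 2 counting errors.

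Next in order were RPS27A, whose product is made as a fusion with ubiquitin, and RPL21. RPS27A was enriched 10.4-fold in control and 7.38-fold in sgSNHG1 (-0.49 ± 0.33), just short of the limit, and RPL21 had 10.3 and 7.36 (-0.49 ± 0.42). The gap between RPL23 and RPS27A was smaller than the counting error of either.

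No member had a log2 ratio of 0.5 or more, beside 1.86% of all promoters. The highest ratios were those of RPL26L1, with 6.80 (33 fragments) in control and 9.40 (37 fragments) in sgSNHG1 (0.47 ± 0.35, or -0.23 ± 0.47 with the peak of the nearest summit), and RPL6, with 5.93 (20 fragments) and 8.16 (26 fragments) (0.46 ± 0.43). RPS25, a small subunit protein, had 8.04 (50 fragments) and 10.8 (63 fragments), a ratio of 0.42 ± 0.27. RPL11 had 6.77 (26 fragments) and 8.93 (33 fragments), a ratio of 0.40 ± 0.38. RPL36AL had 10.9 (76 fragments) and 14.0 (72 fragments), a ratio of 0.36 ± 0.24.

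**Figure D2:**
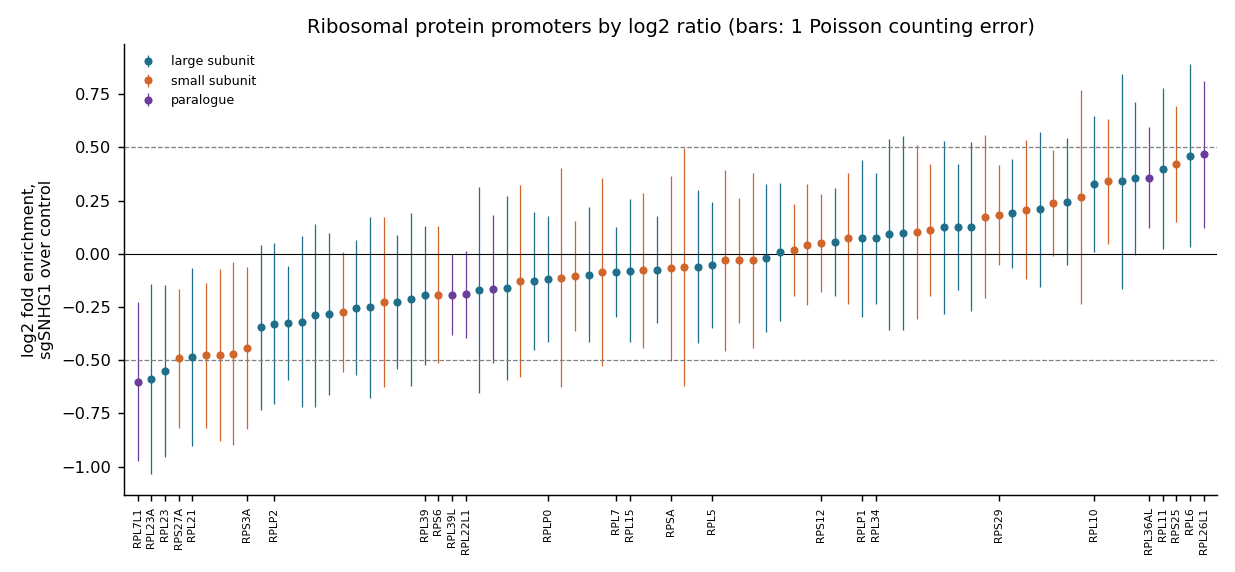
Ratio of fold enrichment between the lists as a log2 value (y axis, negative where sgSNHG1 was lower) for the 79 members with a peak in both lists, in order of the ratio (x axis, with symbols for the members chosen by the naming rule). Bars show 1 Poisson counting error and the dashed lines mark -0.5 and 0.5, past which 3 members lie on the low side and 0 on the high side.

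The members named below for roles beyond the ribosome core had ratios within 2 counting errors of 0, as every member did with its highest peak. RPL5 and RPL11 form the 5S RNP with the 5S ribosomal RNA, which holds MDM2 when ribosome assembly is disturbed. RPL5 went from 10.8 in control to 10.4 in sgSNHG1 (-0.05 ± 0.30). The P-stalk proteins recruit the translation factors. RPLP0 had 10.2 and 9.41 (-0.12 ± 0.30), RPLP1 had 7.69 and 8.08 (0.07 ± 0.37), and RPLP2 had 5.27 and 4.2 (-0.33 ± 0.38). RPSA, also known as the laminin receptor, had 7.70 and 7.35 (-0.07 ± 0.43).

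Genes whose loss causes Diamond-Blackfan anaemia, an inherited failure of red cell production, were examined as a list of 20. All 20 were open in both lists, at a median height of 7.83 in control and 8.77 in sgSNHG1. Their median log2 ratio was 0.03, with 8 lower and 12 higher, and that of the other 59 members with a ratio was -0.12, with 39 lower and 20 higher. On the scaled pileup, defined below, the list had a median of 0.17 with 16 of 20 higher, and the others had 0.00 with 29 of 59 higher. Over all promoters, 60.6% were lower on the fold enrichment and 55.2% on the scaled pileup. No gene of the list passed either limit on the fold enrichment, and the difference between the lists was not tested. RPS19, the gene most often mutated in the disease, had a control value of 5.31 (16 fragments) and an sgSNHG1 value of 6.38 (17 fragments), a log2 ratio of 0.27 ± 0.50. RPS26 had 9.44 (48 fragments) and 9.92 (41 fragments), a ratio of 0.07 ± 0.31.

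Within the bounds of 28 members lay 60 annotated snoRNA genes on the same strand, with small Cajal body RNA genes included and introns not separated from exons. As SNHG1 is itself a snoRNA host gene, hosts and non-hosts were compared. RPL4 held 5 snoRNA genes and went from 5.74 in control to 6.11 in sgSNHG1 (0.09 ± 0.45). RPL13A, RPL7A and RPL23A held 4 each, and the first 2 had log2 ratios of 0.34 ± 0.50 and -0.21 ± 0.41. The median log2 ratio was -0.09 over 26 hosts and -0.06 over 53 members without a snoRNA gene. Hosts had a median height of 7.70 in control and 7.35 in sgSNHG1, and the others 8.04 and 8.19. A protein-coding gene on the opposite strand started within 1 kb upstream of 18 members, and non-coding genes were not searched. All 18 were open in both lists. Their ratios had a median of -0.06 and their control peaks a median width of 676 bp, against -0.08 and 511 bp for the other members.

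Paralogues were compared with their parent genes within each list. RPL22L1 had a higher fold enrichment than RPL22, 14.7 against 9.14 in control, a log2 ratio of 0.69 ± 0.25 (counting error), and 12.9 against 10.8 in sgSNHG1 (0.25 ± 0.26). RPL22 and RPL22L1 are alternative subunits of the same place in the ribosome. RPL39L, an alternative to RPL39 at the exit tunnel, exceeded RPL39 by 0.35 ± 0.24 in control and by 0.35 ± 0.29 in sgSNHG1. RPL36AL exceeded RPL36A by 0.39 ± 0.31 and 0.40 ± 0.30. RPS27L, a p53 target, exceeded RPS27 by 0.43 ± 0.30 and 0.22 ± 0.33.

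The remaining pairs did not have a paralogue above its parent in both lists. RPL26L1 over RPL26 gave -0.02 ± 0.40 in control and 0.35 ± 0.41 in sgSNHG1. RPL7L1 over RPL7 gave -0.08 ± 0.26 and -0.60 ± 0.34. Among the 12 ratios, the control value of RPL22L1 over RPL22 was the one beyond 2 counting errors.

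**Figure D3:**
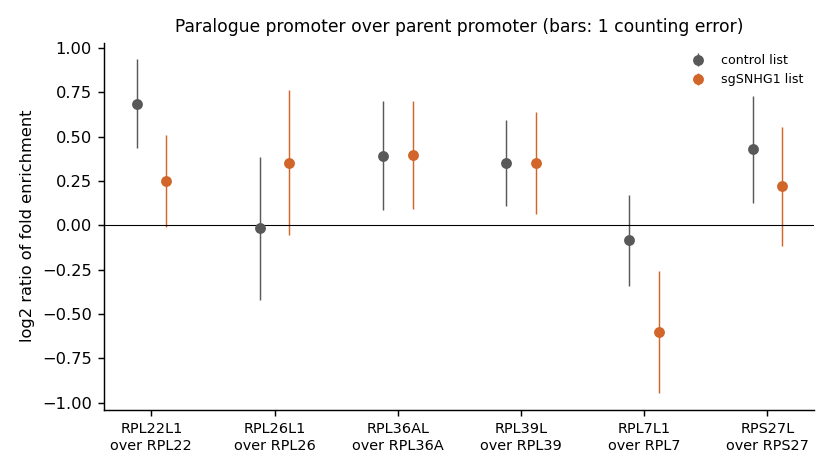
Log2 ratio of the fold enrichment of a paralogue promoter over that of its parent gene (y axis) for 6 pairs (x axis), in the control and the sgSNHG1 list. Bars show 1 counting error, and 4 of the 6 paralogues lie above their parent in both lists.

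Fold enrichment is relative to the background around a peak, so the pileup itself was also compared. The scaled pileup divides the pileup by the smallest local background of its list, 2.20 fragments in control and 1.72 in sgSNHG1. Its median log2 ratio was 0.04 over the members and -0.04 over all promoters, with 45 members higher and 34 lower (43.0%, beside 55.2% of all promoters). A ratio of -0.5 or less was found for 9 members, beside 10.4% of all promoters, and a ratio of 0.5 or more for 6 members, beside 6.36%. The first were RPL23, RPL24, RPL34, RPL39L, RPL7L1, RPS23, RPS27A, RPS3A and RPS6, and the second RPL10, RPL11, RPL13A, RPL26L1, RPL6 and RPS25.

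In 4 of these 15 members the promoters around them were shifted as well. Neighbours were the promoters of other protein-coding genes within 5 Mb, and a stretch was called shifted where their median log2 ratio of scaled pileup was at least 0.5 in size. The share of all promoters in such stretches was not counted, so that the count of members has no background beside it. RPS3A, a small subunit protein, had 51 fragments in control and 20 in sgSNHG1 at chr4:151099209-151099860, a scaled ratio of -0.99 ± 0.38. All 24 neighbours were lower, with a median of -1.03. RPL34, also on the long arm of chromosome 4, had 69 and 32 fragments, a scaled ratio of -0.75 ± 0.31, and all 26 neighbours were lower, with a median of -0.86.

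RPS6, whose protein is phosphorylated on growth signals, had 69 fragments in control and 28 in sgSNHG1 at chr9:19379967-19380589, a scaled ratio of -0.94 ± 0.32. All 20 neighbours were lower, with a median of -0.96. RPL10, on the long arm of chromosome X, had 32 fragments in control and 57 in sgSNHG1, a scaled ratio of 1.19 ± 0.32, and 0 of its 45 neighbours were lower, with a median of 0.71. RPL10 completes the large subunit at the last step of its assembly.

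The local background moved with the pileup at these 4 promoters. Its log2 ratio was -0.83 at RPS3A, -1.20 at RPL34, -1.09 at RPS6 and 0.96 at RPL10. The fold enrichment, which divides by it, gave -0.44 ± 0.38, 0.07 ± 0.31, -0.19 ± 0.32 and 0.33 ± 0.32. None of the 4 thus passed the limit of 0.5 on the fold enrichment. In sgSNHG1 the local background was 1.72 fragments at RPL34, the smallest value of that list, and 1.82 at RPS3A and RPS6. At these promoters the background thus lay at or near its floor, which limits both the background ratios and the fold enrichment ratios. The value of RPL10 rests on which of its 3 sgSNHG1 peaks is taken, as with the peak of the nearest summit it turned to -0.90 ± 0.39. The neighbours of the other 75 members had medians from -0.38 to 0.25, while the members themselves ranged from -0.68 to 0.74. Members elsewhere on the same chromosomes lay outside the shifted stretches. RPL9 on chromosome 4 had a scaled ratio of -0.28 ± 0.32, RPL7A on chromosome 9 one of 0.08 ± 0.41, and RPS4X on chromosome X, the X-linked form of S4, one of -0.38 ± 0.43. The part of clone differences in these stretches was not tested.

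**Figure D4:**
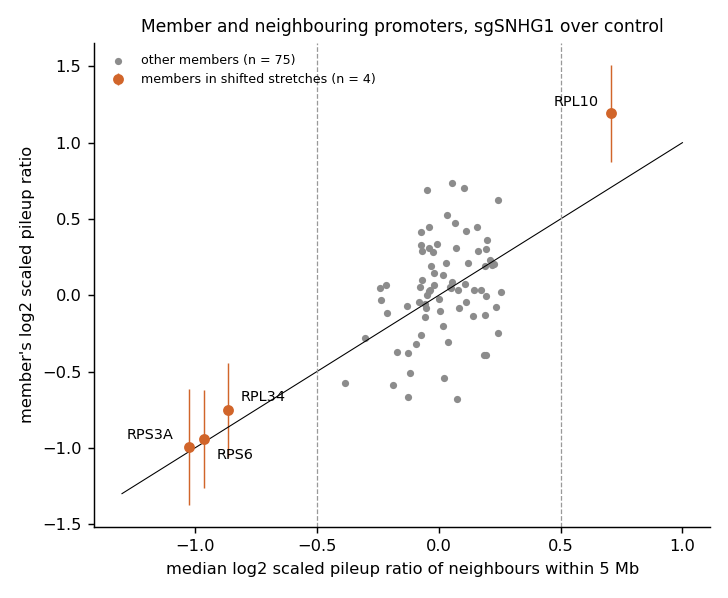
Log2 ratio of scaled pileup, sgSNHG1 over control, of each member (y axis) against the median ratio of the promoters of other genes within 5 Mb (x axis). RPL34, RPS3A and RPS6 lie below -0.5 and RPL10 above 0.5 on both axes (bars, 1 counting error), the first 3 near the line of equal values and RPL10 above it, and the neighbours of the other 75 members lie between the dashed lines.

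Peaks were narrower in sgSNHG1, as they were over all promoters. The members had a median width of 531.5 bp (control) and 400.0 bp (sgSNHG1), beside 618 bp and 451 bp over all genes. The median log2 ratio of width was -0.35, beside -0.39, and 61 of 79 members were narrower, where the share over all promoters was 83.8%. The widest control peaks were those of RPL7, with 1969 bp in control and 1809 bp in sgSNHG1, RPL15, with 1078 bp and 616 bp, and RPL36AL, with 1031 bp and 904 bp. A gene on the other strand starts within 1 kb upstream of each of these 3, namely RDH10, NKIRAS1 and MGAT2. The median pileup of the members was likewise lower, 38 fragments in control and 30 in sgSNHG1, and its part in the widths was not tested.

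A few promoters were split differently. RPL10 had 1 promoter peak in control and 3 in sgSNHG1, 1 of them at another start farther upstream. RPL4 had 1 peak of 706 bp in control, and in sgSNHG1 a peak of 270 bp and another of 104 bp. RPL12 had 2 peaks in control and 1 in sgSNHG1.

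Summits sat just upstream of the start sites. Measured from the nearest start of any transcript, the median summit lay 73.5 bp upstream in control and 76 bp upstream in sgSNHG1, against 36 bp and 44 bp upstream over all genes. Summits were upstream of the start for 65 of 82 members in control (79.3%, beside 66.4% of all genes) and for 74 of 80 in sgSNHG1 (92.5%, beside 70.9%). From the start of the canonical transcript the medians were 97 bp and 100.5 bp upstream. From the start of the gene record, the outermost one, they were 29.5 bp and 52.5 bp upstream, and those over all genes 32 bp and 15 bp downstream. By the canonical gene model 74 control summits lay upstream, 5 in the untranslated part of an exon and 3 in an intron, and in sgSNHG1 76 lay upstream and 4 in an untranslated part.

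The same site was open in both lists. All 79 pairs of peaks overlapped each other, beside 93.5% of pairs over all genes, and 65 of them (82.3%, beside 73.7%) overlapped by at least 50% of both widths. The summits of a pair were a median of 41 bp apart, against 50 bp over all genes, and 68 pairs (86.1%, beside 70.7%) lay within 100 bp. In the stretches printed above, the control summit of RPL34 lay 84 bp before the listed start and the sgSNHG1 summit 82 bp before it. RPS6 had summits 80 bp and 66 bp before its start, and RPL11 62 bp and 77 bp.

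**Figure D5:**
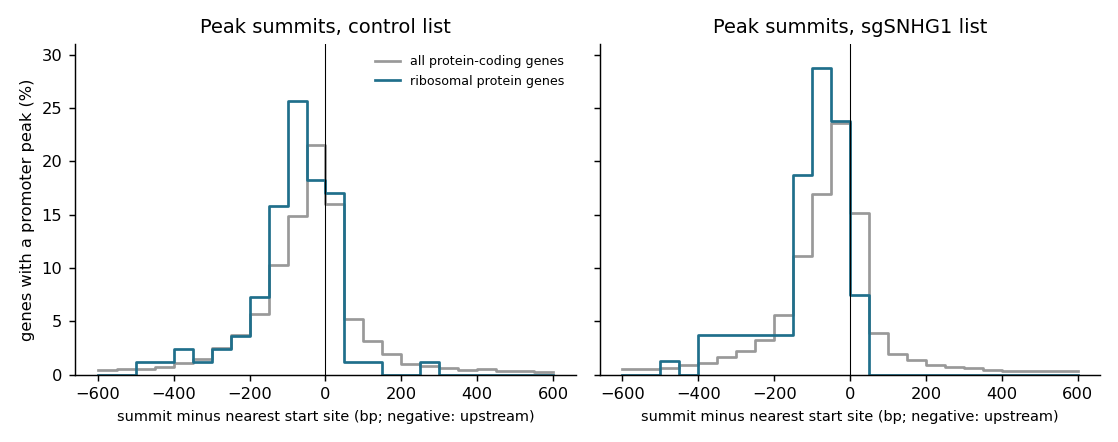
Share of genes with a promoter peak (y axis, percent) by the distance of the peak summit from the nearest start site (x axis, bp, bins of 50 bp, negative values upstream, farther summits not drawn), for ribosomal protein genes and all protein-coding genes in each list. The fullest bin of the members, from 100 to 50 bp upstream, holds 25.6% of them in control and 28.8% in sgSNHG1, beside 14.9% and 16.9% of all genes.

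Genes of the other ribosome and of the translation machinery gave a comparison. Of 78 mitochondrial ribosomal protein genes, 72 were open in both lists (92.3%), with median heights of 8.57 and 7.86. Their median log2 ratio was -0.05, with 4 of 72 at -0.5 or less (beside 7.42% of all promoters) and 1 at 0.5 or more (beside 1.86%). Of these mitochondrial genes, MRPL42 (-0.74 ± 0.37) and MRPS18B (-0.68 ± 0.33) differed by more than 2 counting errors, beside 1.89% of all promoters. Their summits lay a median of 27 bp and 38 bp upstream of the nearest start, closer to it than those of the cytosolic ribosomal protein genes.

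Of 24 other genes of cytosolic translation, 22 had a peak in both lists, and EEF2 and EIF3K had one in control alone. Their median log2 ratio was 0.00, with 11 lower and 11 higher, where 60.6% of all promoters were lower. EEF1B2, an exchange factor for elongation factor 1A, had 8.51 in control and 12.9 in sgSNHG1, a ratio of 0.60 ± 0.27, more than 2 counting errors. FAU, which encodes ribosomal protein S30 as a fusion and falls outside the symbol rule, had a ratio of -0.01 ± 0.34.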

How the data were processed

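ATAC-seq libraries of 2 control and 2 sgSNHG1 samples were analysed from 2 deposited peak lists. According to the submitters' notes and the study's methods, the authors trimmed reads with cutadapt, aligned them to GRCh38 with BWA, marked duplicates with Picard, removed duplicate, mitochondrial, multiply mapped and blacklisted reads, shifted read ends to the transposase cut with deepTools, merged the replicates of a group and called peaks with MACS2. Versions and the calling threshold are not given in the sources used here. In the deposited lists the fold enrichment is the ratio of summit pileup to local background, each with a pseudocount of 1. The deposited -log10 p-values and q-values rest on a Poisson distribution of that background. Removing duplicates caps tall peaks, and merging hides differences between libraries.

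Pileups were solved from fold enrichment and p for 47516 of 47610 control and 42576 of 42682 sgSNHG1 peaks (tolerance 0.001 in -log10 p), a step checked on simulated peaks. Counting errors of log2 ratios are the square root of the summed inverse pileups, divided by ln 2, and cover counting error only. Over all promoters their median, 0.345, was larger than the SD of the log2 ratios of fold enrichment, 0.287. Genes and starts came from GENCODE version 44 (GRCh38). Python 3.11.15, NumPy 2.4.6 and pandas 2.3.3 were used. The members, lists, limits and motifs were chosen with earlier results of these data known. Members named are the 5 lowest and 5 highest ratios, the 5 highest control peaks, the 3 widest, members without a peak in both lists, those in shifted stretches, and RPLP0, RPLP1, RPLP2, RPSA, RPL5 and RPL11. Members named for split peaks, motifs, scaled pileup, disease, snoRNA content or chromosome, and RPL41, EEF1B2, FAU, MRPL42 and MRPS18B, were chosen after their values were seen. The wider window, the gene-record start, a stricter q, the nearest summit and subsets of members were tried as alternatives. Some items examined are not named here.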

Additional observations from a re-analysis of the deposited data

How the results depend on the processing

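No paired analysis was possible because the replicates of each group were merged before peak calling, and for the same reason no replicate could be left out. The count of members with a peak in both lists ran from 60 of 85 (peaks with a -log10 q of at least 10) to 81 of 85 (window of 3 kb). Among all 19970 protein-coding genes the counts under these settings were 8614 and 12714. The median log2 ratio of fold enrichment ran from -0.08 to -0.03. The median log2 ratio of width ran from -0.37 to -0.26. The 3 of 79 members at -0.5 or less became 1 of 60 (RPL7L1) with a -log10 q of at least 10, beside 317 of 8614 promoters. With the peak of the nearest summit they became 5 of 79 (RPL10 at -0.90 and RPL22 at -1.29 added, both positive before), beside 1218 of 12058. The RPL22 value there sets peaks at different starts against each other, chr1:6199358-6199823 in control and chr1:6209283-6209383 in sgSNHG1. The count was 0 of 65 where both peaks had to overlap by 50%, beside 504 of 8891. It was 0 of 79 at a limit of 1 (28 of 12058), and 9 of 79 with scaled pileup in place of fold enrichment (1258 of 12058). The count at 0.5 or more was 0 under these settings, except with scaled pileup, where it was 6 of 79. Over all promoters it was 102 of 8614, 457 of 12058, 143 of 8891, 4 of 12058 and 767 of 12058 in the same order. Peaks listed above a threshold alone, 1 pooled list per group and pileups with a median of 38 fragments in control and 30 in sgSNHG1 limit what these lists can show, since the median counting error of a log2 ratio was 0.35. The distance of summits from the start moved with the start used, to 29.5 bp upstream in control and 52.5 bp in sgSNHG1 from the gene record. The 4 members in shifted stretches were the same with neighbours within 2 Mb or 10 Mb, windows chosen after seeing the data, as were the canonical start and the wider search for the TOP tract.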
